A study of Mus musculus with 6 samples.

Results

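The genes described here encode 8 subunits of the Polycomb repressive complexes, namely *Ezh1*, *Ezh2*, *Suz12*, *Eed*, *Ring1*, *Rnf2*, *Bmi1* and *Cbx7*. They were taken by gene symbol from the tables of expression values, and all 8 were found among the 23183 symbols listed. The tables came from mRNA-seq of sorted double positive (DP) thymocytes, the immature T cells that carry both CD4 and CD8, from C57BL/6 mice aged 6 weeks. The 3 WT libraries were from Nsrp1f/f mice, which carry the floxed allele without Cre, and the 3 NSrp70-cKO libraries were from Nsrp1f/f CD4Cre mice, in which Cre is driven from *Cd4* regulatory sequence and so acts in thymocytes and their progeny. *Nsrp1* encodes NSrp70, a splicing regulator of nuclear speckles. Whether each library came from a separate animal is not stated, so the p-values below measure only the spread between these libraries.

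Polycomb proteins keep genes silent through chromatin. Polycomb repressive complex 2 (PRC2) methylates lysine 27 of histone H3 with the enzyme EZH2 or its relative EZH1, which work only together with the core subunits SUZ12 and EED. Polycomb repressive complex 1 (PRC1) attaches ubiquitin to histone H2A with the RING-finger enzymes RING1 (RING1A) and RNF2 (RING1B). Each RING enzyme pairs with a PCGF protein such as BMI1, and in canonical PRC1 a CBX protein such as CBX7 binds the methyl mark that PRC2 leaves. In T cell development these complexes are known for holding the *Cdkn2a* locus silent and for keeping genes of other lineages off.

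Sample quality was checked first. The files hold FPKM values (fragments per kilobase of a gene's transcript, expressed relative to how many fragments a library had mapped), from which a depth of 20.7 to 20.8 M fragments (M, mega) was estimated for the WT libraries and of 13.1, 20.7 and 17.4 M for cKO 1, 2 and 3. Over genes with a single transcript, the spread between a pair of libraries, relative to counting noise, had a median of 1.30 to 1.31 within WT and of 5.30 to 12.8 within cKO. For this reason the WT libraries were also averaged and treated as a single sample, n = 1, a fit in which the spread comes from the cKO libraries alone and WT is assumed to vary like them. *Nsrp1* itself, under the older symbol *Ccdc55*, was at 20.2, 20.7 and 21.1 FPKM in WT and at 17.7, 15.8 and 15.002 in cKO (log2 fold change -0.34, adjusted p = 0.00675, limma). Its mean FPKM in cKO was still 0.782 of that in WT. This is a value for the whole gene, which does not separate the deleted part from the rest of the transcript. By western blot the paper reported significantly less NSrp70 protein in cKO thymocytes. The DP label matched the markers, with summed FPKM of 9 DP genes of 5071 to 5157 in WT and 6927 to 9010 in cKO (6 higher and 3 lower, or 1 higher and 5 lower with quantile normalization), and, of 5 thymic epithelial genes, *Foxn1* and *Krt5* at 0 throughout. The sum of those 5 was 3.56 to 3.98 FPKM in WT and 1.92 to 3.67 in cKO, nearly all of it from *Epcam*. The Y-linked gene *Uty* was listed at 0 throughout WT but at 5.83 to 8.06 FPKM in cKO, so sex and genotype cannot be told apart here. None of the 8 genes lies on a sex chromosome, but this does not separate sex from genotype for them.

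The 8 genes did not move together. 3 of the 8 were higher in NSrp70-cKO DP thymocytes (*Ezh2*, *Eed* and *Rnf2*, all of which turned negative when libraries were scaled to the same FPKM total), 2 were lower (*Ring1* and *Cbx7*), and *Ezh1*, *Suz12* and *Bmi1* did not pass the test. The largest difference was that of *Cbx7*, whose mean FPKM in cKO was 0.230 of that in WT, and the next was that of *Ring1*, at 0.589. In these bulk libraries fewer cells of a type and less RNA per cell cannot be told apart. All 3 rises were smaller, at 1.17 to 1.32 times the WT mean. The test was limma on log2(FPKM + 1) after division by a size factor, with an adjusted p under 0.05, over the 10326 genes that reached 1 FPKM in 3 libraries or more, and all 8 genes entered it. By the same test 65.5% of all genes were called, 35.8% higher and 29.8% lower, so the 5 calls among 8 genes lie near the share of genes in general. In 6 of the 8 genes, *Suz12* included, the genotypes did not overlap, 3 with all cKO values higher and 3 with all lower, against 72.5% of all genes, 39.2% higher and 33.3% lower. The median log2 fold change was -0.076 over the 8 genes and 0.039 over all genes tested.

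**Figure D1:**
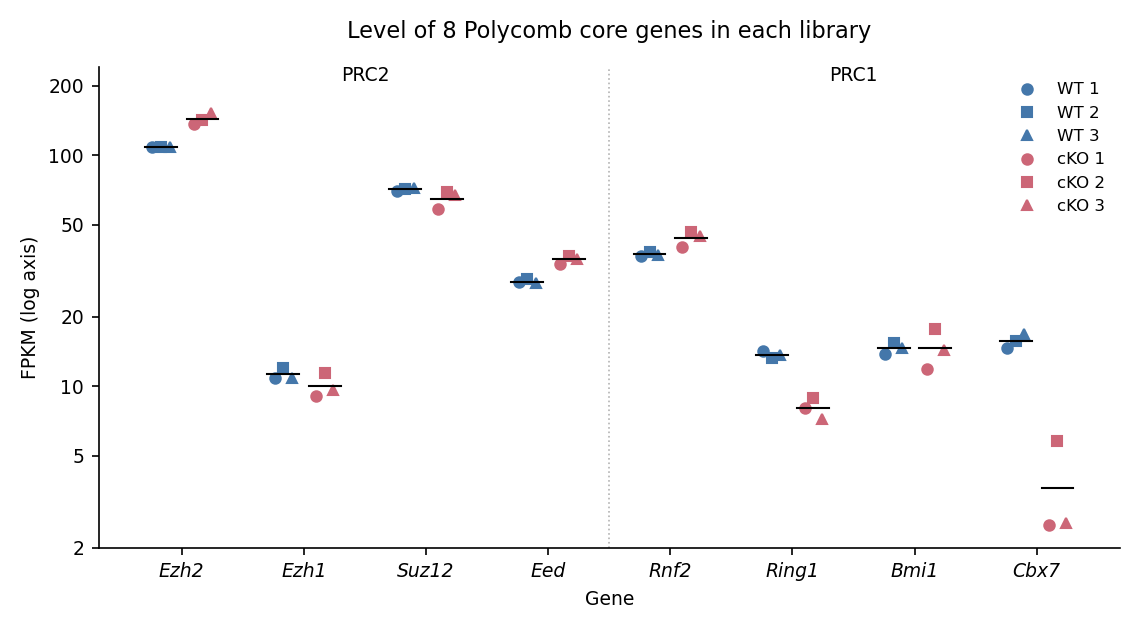
FPKM of each gene (log axis) in every library, WT in blue and cKO in red, with a bar at the mean of 3 libraries. The cKO points of *Cbx7* (2.52 to 5.77) and *Ring1* (7.25 to 8.92) lie below all WT points, whereas those of *Ezh2*, *Eed* and *Rnf2* lie above them on this scale (but not with the same FPKM total), and the groups overlap for *Ezh1* and *Bmi1*.

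In every WT library the order of the levels per length began with *Ezh2*, then *Suz12*, *Rnf2* and *Eed*, and ended with *Ezh1*. Between them *Cbx7*, *Bmi1* and *Ring1* were neighbours whose WT values lay between 13.3 and 16.9 FPKM. *Bmi1* (13.9 to 15.4) overlapped both of the others, so its place among them did not hold beyond the spread. Every WT value of *Cbx7* (14.6 to 16.9) lay above every WT value of *Ring1* (13.3 to 14.2). In every cKO library the first 4 places were the same, followed by *Bmi1*, *Ezh1*, *Ring1* and *Cbx7*, and no neighbours in that order overlapped.

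The start regions of 4 of the genes are shown because E2F factors are known to switch on genes of DNA replication, and CCAAT boxes are common in promoters of cell cycle genes. *Ezh2* and *Suz12* are the only members whose window holds an E2F spelling, *Ezh2* being called higher and *Suz12* not called, and *Ring1* and *Cbx7* are the members called lower. The windows run from 250 bases before to 50 bases after the RefSeq start on GRCm38.p6, 5′ to 3′ on the strand of the gene, with E2F spellings (TTTCCCGC, TTTCGCGC, TTTGCCGC or TTTGGCGC, either strand) and CCAAT (either strand) in capitals.
*Ezh2*, chr6:47594981-47595280, minus strand: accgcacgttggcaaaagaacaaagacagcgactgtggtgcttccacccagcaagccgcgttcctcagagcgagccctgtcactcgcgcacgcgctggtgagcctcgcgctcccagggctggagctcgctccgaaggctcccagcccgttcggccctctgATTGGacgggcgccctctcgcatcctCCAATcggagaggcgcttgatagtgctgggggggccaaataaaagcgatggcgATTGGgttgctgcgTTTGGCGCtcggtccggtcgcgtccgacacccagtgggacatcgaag
*Suz12*, chr11:79992856-79993155, plus strand: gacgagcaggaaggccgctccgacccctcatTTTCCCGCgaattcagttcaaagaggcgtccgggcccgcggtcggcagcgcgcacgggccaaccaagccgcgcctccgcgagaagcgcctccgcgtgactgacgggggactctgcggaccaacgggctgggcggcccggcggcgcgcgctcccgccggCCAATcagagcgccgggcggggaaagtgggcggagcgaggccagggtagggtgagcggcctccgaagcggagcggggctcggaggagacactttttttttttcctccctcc
*Ring1*, chr17:34024631-34024930, minus strand: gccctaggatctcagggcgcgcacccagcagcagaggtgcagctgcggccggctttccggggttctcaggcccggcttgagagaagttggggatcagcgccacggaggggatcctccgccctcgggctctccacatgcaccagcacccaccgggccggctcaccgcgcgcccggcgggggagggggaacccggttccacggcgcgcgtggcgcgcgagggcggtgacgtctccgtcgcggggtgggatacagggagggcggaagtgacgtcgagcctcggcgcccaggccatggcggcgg
*Cbx7*, chr15:79932597-79932896, minus strand: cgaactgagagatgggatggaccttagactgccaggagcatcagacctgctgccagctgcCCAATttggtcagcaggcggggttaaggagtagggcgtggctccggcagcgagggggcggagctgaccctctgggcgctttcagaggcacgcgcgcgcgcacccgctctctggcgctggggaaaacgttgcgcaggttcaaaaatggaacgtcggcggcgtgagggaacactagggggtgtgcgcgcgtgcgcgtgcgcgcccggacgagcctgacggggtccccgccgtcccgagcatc

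The *Ezh2* window held TTTGGCGC at position 3 from the start, and CCAAT or its reverse complement 3 times. The *Suz12* window held TTTCCCGC at position -219, and CCAAT once. Of 32851 windows of this length, 2.26% held an E2F spelling and 37.4% held CCAAT, against 2 and 4 of the 8 genes. All 8 windows were richer in CpG than the median window, with 17 (*Eed*) to 41 (*Suz12*) CpG against 7. Each E2F spelling itself holds a CpG, and the 32851 windows were not matched to the 8 genes for CpG content, so these shares are not a like comparison. The *Ring1* window held 37 CpG and neither set of letters, and the *Cbx7* window held 33 CpG and CCAAT once. A match in these letters is a description of the sequence and not a measured binding site.

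The catalytic subunits of PRC2 were measured at very different levels. *Ezh2*, the main methyltransferase of dividing cells (chromosome 6, 47530139 to 47595341, minus strand, GRCm38), was at 108, 109 and 109 FPKM in WT and at 136, 142 and 152 in cKO. The WT libraries were nearly equal and all 3 cKO libraries lay above them. In log2 terms the difference was 0.40 (SE 0.069, adjusted p = 0.00219, limma), or 1.32 times the WT mean. The rise was not held by every way of processing. It was 0.019 (adjusted p = 0.799, limma) with quantile normalization and 0.16 (adjusted p = 0.0654) when GC content and transcript length were corrected for. Scaled to the same FPKM total, the direction turned to -0.16, in a setting that moved the median of all genes from 0.039 to -0.45, and relative to that median *Ezh2* was 0.29 higher.

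*Ezh1*, the relative of *Ezh2* with weaker activity that is best known from resting cells (chromosome 11, 101191115 to 101226463, minus strand), was at 10.9, 12.1 and 10.9 FPKM in WT and at 9.04, 11.4 and 9.68 in cKO. The groups overlapped, since cKO 2 lay above 2 of the WT libraries. The log2 fold change was -0.16 with a 95% interval from -0.38 to 0.064 (adjusted p = 0.176, limma), an interval that holds 0 as well as a fall. Without cKO 2 the value was -0.24 (adjusted p = 0.0184, limma).

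*Suz12*, the scaffold on which PRC2 assembles (chromosome 11, 79993106 to 80034123, plus strand), had 70.3, 71.7 and 72.0 FPKM in WT and 58.7, 69.1 and 67.0 in cKO. The cKO values were all below the WT values, with cKO 1 the lowest and the other two closer to WT. The log2 fold change of -0.14 had a 95% interval from -0.32 to 0.040 and did not pass the test (adjusted p = 0.144, limma). It passed with quantile normalization (-0.38, adjusted p = 0.00639), after the GC and length correction (-0.30, adjusted p = 0.00534) and without cKO 2 (-0.17, adjusted p = 0.0437, all from limma), and it kept its sign with the same FPKM total (-0.69).

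*Eed*, the subunit that reads the methyl mark and stimulates the enzyme (chromosome 7, 89954654 to 89980983, minus strand), was at 28.2, 29.1 and 27.9 FPKM in WT and at 33.8, 36.8 and 35.7 in cKO. All cKO libraries were above all WT libraries and the spread within each genotype was small against the gap. It amounted to 0.31 on the log2 scale (SE 0.060, adjusted p = 0.00357, limma). After the GC and length correction it was 0.071 (adjusted p = 0.293, limma), and with the same FPKM total it was -0.24, which is 0.22 above the median of all genes in that setting.

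Of the ubiquitin ligases of PRC1, *Ring1* was lower in cKO and *Rnf2* was higher, the latter with a sign that depended on the setting. *Ring1* (chromosome 17, 34020792 to 34024680, minus strand) was at 14.2, 13.3 and 13.7 FPKM in WT and at 8.08, 8.92 and 7.25 in cKO. No cKO library reached any WT library. On the log2 scale *Ring1* fell by 0.70 (SE 0.083, adjusted p = 0.000498, limma). *Ring1* remained lower past the threshold with every library left out in turn, under all scalings, with the WT libraries counted as 1 sample (adjusted p = 0.0472, limma) and after the GC and length correction, where the fall shrank to -0.32 (adjusted p = 0.0172). With those last choices combined it did not pass (adjusted p = 0.255).

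*Rnf2*, the ligase gene with the higher FPKM in these cells (chromosome 1, 151458004 to 151500955, minus strand), had 36.8, 38.1 and 36.9 FPKM in WT and 40.0, 46.5 and 44.8 in cKO. The cKO libraries all lay above WT, though cKO 1 lay close to WT 2. *Rnf2* rose by 0.22 on the log2 scale (SE 0.071, adjusted p = 0.0279, limma). This call was the least stable of the 5, with an adjusted p from 0.0664 to 0.102 without WT 1, 2 or 3 or without cKO 3 and of 0.0579 with the replicate number as a block, and the sign turned after the GC and length correction (-0.073) and with the same FPKM total (-0.33). *Rnf2* shares 158 exon bases with *Trmt1l* on the opposite strand, which was at 15.9 to 16.7 FPKM in WT and 12.3 to 12.8 in cKO. The libraries were made with a strand-specific kit, but whether strand was used in the counting is not stated.

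*Bmi1* (*Pcgf4*), the PCGF partner known for repressing *Cdkn2a* and for sustaining progenitor cells (chromosome 2, 18677018 to 18686629, plus strand), was at 13.9, 15.4 and 14.7 FPKM in WT and at 11.9, 17.8 and 14.4 in cKO. The cKO libraries spread on both sides of WT, with cKO 1 the lowest and cKO 2 the highest of all 6. The log2 fold change was -0.012 with a 95% interval from -0.32 to 0.29 (adjusted p = 0.938, limma), and its sign changed with the setting, for example to 0.0043 with quantile normalization.

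*Cbx7*, the chromodomain protein that brings canonical PRC1 to methylated H3 (chromosome 15, 79915807 to 79971119, minus strand), had 14.6, 15.7 and 16.9 FPKM in WT and 2.52, 5.77 and 2.56 in cKO. The highest cKO value, in cKO 2, was still far under the lowest WT value. The log2 fold change was -1.92 (SE 0.243, adjusted p = 0.000626, limma), and it stayed past the threshold with every library left out (-2.23 to -1.76), under all scalings, with WT counted as 1 sample (adjusted p = 0.0330) and after the GC and length correction (-1.45, adjusted p = 0.00335). With the last choices combined the adjusted p was 0.0938. The values rest on about 968 to 1114 fragments per WT library and on about 106, 381 and 142 in cKO 1, 2 and 3, as estimated from depth and transcript length. *Apobec3* on the opposite strand shares 100 exon bases with *Cbx7* and was at 26.97 to 27.4 FPKM in WT and 37.2 to 41.7 in cKO.

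Markers of other thymocyte stages moved with genotype beside these genes. Of 7 genes of mature single positive thymocytes, 6 were lower in cKO and 1 was higher, with *Ccr7*, the receptor that guides mature cells to the medulla, at 15.1 to 16.2 FPKM in WT and 1.16 to 2.50 in cKO. The summed level of the 7 genes was 131 to 132 FPKM in WT and 102 to 125 in cKO. Of 5 tested genes of double negative thymocytes 3 were lower, and the 2 erythroid genes tested were higher. Of these 2, *Hbb-b1* was above 1 FPKM in every library. *Hba-a1* was at 0.416 to 1.00 FPKM in WT and 3.27 to 10.4 in cKO, and passed the filter through cKO. Summed over all listed genes, tested or not, the levels were 42.7 to 43.5 FPKM in WT and 30.6 to 41.2 in cKO for the 6 double negative genes, and 1.96 to 2.72 and 12.3 to 26.6 for the 4 erythroid genes. The B cell gene tested (*Cd79b*) was higher, but at -0.026 with the same FPKM total, while none of 4 myeloid genes and not the 1 thymic epithelial gene tested was called. The part of these populations in the lower *Cbx7* and *Ring1* levels was not tested.

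Genes of DNA replication and mitosis also differed. Of 15 such genes 14 were higher in cKO, with a median log2 fold change of 1.06 (0.68 with quantile normalization and 0.50 with the same FPKM total), and their summed level was 1310 to 1316 FPKM in WT and 2587 to 2956 in cKO. *Pcna*, the sliding clamp of replication, was the highest of them, at 407 to 412 FPKM in WT and 856 to 977 in cKO. The rise of *Ezh2*, at 0.40 on the log2 scale before the correction named above, stood beside values of 0.68 to 1.32 for the 14 genes, and *E2f1* was not called (-0.072, adjusted p = 0.486, limma). After the GC and length correction all 15 genes, *E2f1* included, were called higher, with a median of 0.93. With the same FPKM total 13 of the 15 were called higher and 1 lower. Their part in the levels of the PRC2 genes was not tested.

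**Figure D2:**
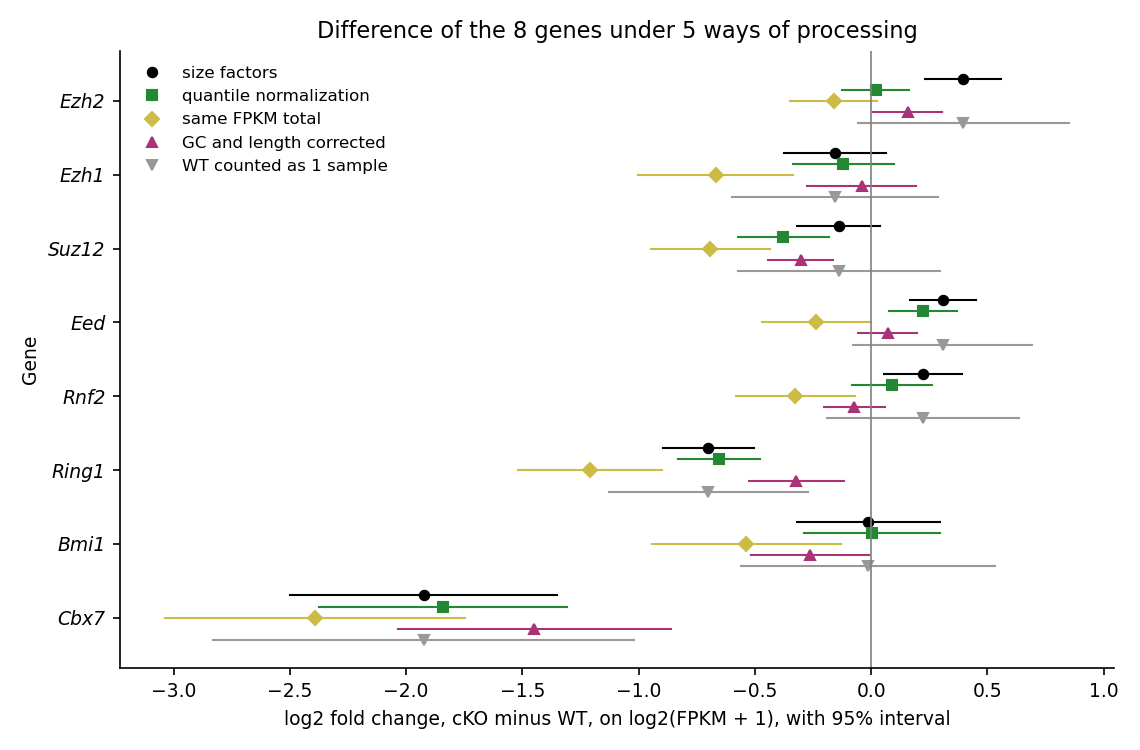
Log2 fold change (cKO minus WT, on log2(FPKM + 1)) of each gene with its 95% interval under 5 ways of processing. *Ring1* and *Cbx7* lie left of 0 in all 5, whereas *Ezh2* and *Eed* turn negative with the same FPKM total (-0.16 and -0.24) and *Rnf2* also after the GC and length correction (-0.073).

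The direction of the smaller differences therefore depended on the setting. With quantile normalization 1 of the 8 genes was higher (*Eed*) and 3 were lower, and after the GC and length correction none was higher and 3 were lower (*Suz12*, *Ring1* and *Cbx7*). Counting the WT libraries as 1 sample left no gene higher, with an adjusted p of 0.164 for *Ezh2*, 0.192 for *Eed* and 0.359 for *Rnf2* from limma, and *Ring1* and *Cbx7* still lower. Across 10237 tested genes with an annotated transcript, the log2 fold change ran against GC content (Spearman's rho -0.33) and against length (-0.30). This is a correlation across genes of the same libraries, which are not independent replicates. *Ring1* and *Cbx7* had the highest GC content of the 8 genes, at 60.7% and 57.5%, and *Rnf2* and *Bmi1* the lowest, at 39.5% and 40.2%, against a median of 49.96%.

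**Figure D3:**
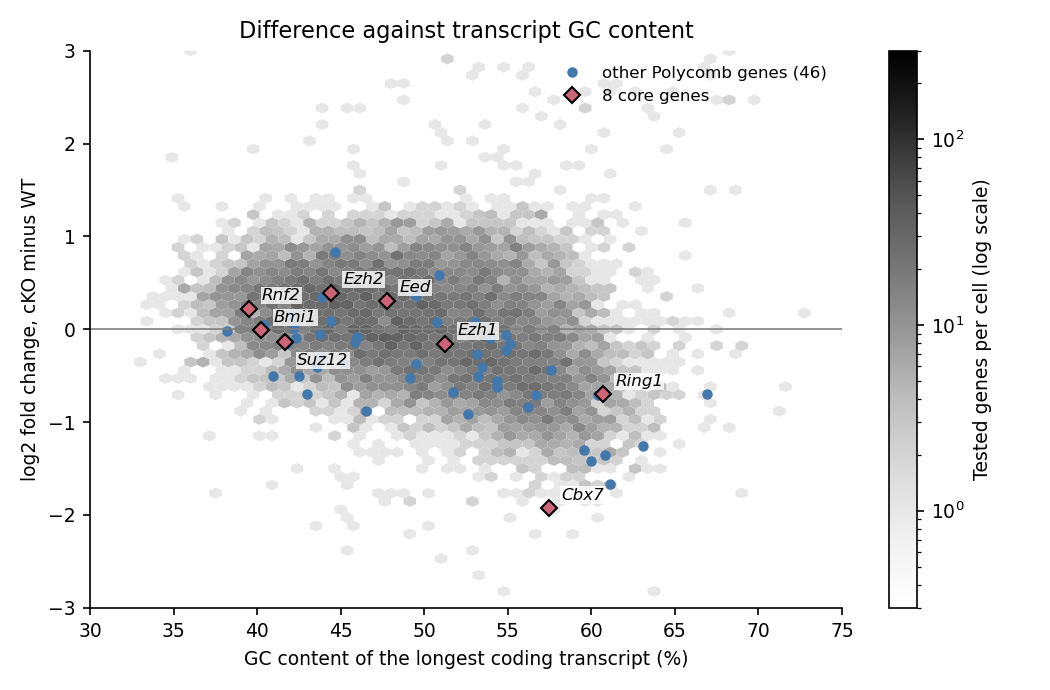
Log2 fold change (cKO minus WT) against the GC content of the longest coding transcript, with tested genes as grey cells, 46 other Polycomb genes in blue and the 8 genes in red; values beyond 3 are not drawn. *Cbx7* (57.5% GC, -1.92) lies under the mass of genes of like GC content, while *Ring1* (60.7%, -0.70) lies within it.

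Ratios within a library do not depend on its scaling, and they show which paralogue made up the pool. *Ezh2* exceeded *Ezh1* 9.95, 9.01 and 9.96 times in WT and 15.04, 12.4 and 15.7 times in cKO. On the log2 scale the WT libraries averaged 3.27 ± 0.083 (SD, n = 3) and the cKO libraries 3.84 ± 0.18 (SD, n = 3), 0.57 higher and with no overlap (exact two-sided permutation test, p = 0.1, the smallest that 3 libraries against 3 allow, 0.133 after adjustment over 4 such measures). The difference was 0.20 (exact permutation p = 0.3) in values corrected for GC content and length. *Rnf2* exceeded *Ring1* 2.59, 2.87 and 2.70 times in WT and 4.95, 5.22 and 6.18 times in cKO.

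The log2 ratio of *Rnf2* to *Ring1* was 1.44 ± 0.075 (SD, n = 3) in WT and 2.44 ± 0.17 (SD, n = 3) in cKO (exact permutation p = 0.1, adjusted 0.133). After the correction the difference of 1.00 shrank to 0.25, still without overlap (exact permutation p = 0.1). The sum of both ligases, which is weighted to *Rnf2*, was 50.6 to 51.4 FPKM in WT and 48.1 to 55.4 in cKO, so that the groups overlapped. The sum of *Ezh1* and *Ezh2* was 119 to 121 FPKM in WT and 145 to 162 in cKO.

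*Bmi1* gave 21.7%, 24.7% and 22.3% of the summed FPKM of 6 PCGF genes in WT and 18.7%, 25.01% and 21.4% in cKO. The groups overlapped (difference of -1.20 percentage points, exact permutation p = 0.5). *Cbx7* gave 14.7%, 15.6% and 16.5% of the summed FPKM of the 5 canonical CBX genes in WT and 4.19%, 9.38% and 4.21% in cKO. Its share was lower in every cKO library (difference of -9.67 percentage points, exact permutation p = 0.1, adjusted 0.133), while the sum of the 5 genes was also lower, at 60.1 to 61.5 FPKM against 99.4 to 102.

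**Figure D4:**
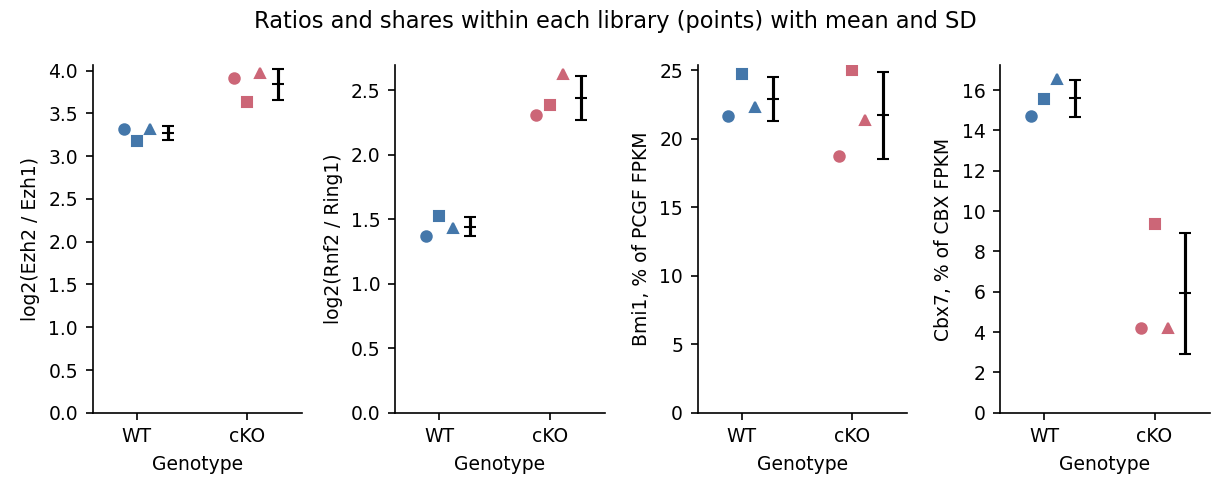
Within-library log2 ratios of *Ezh2* to *Ezh1* and of *Rnf2* to *Ring1*, and shares of *Bmi1* among 6 PCGF genes and of *Cbx7* among 5 CBX genes, as points per library with the mean and SD of 3. Both ratios are higher in all cKO libraries (differences of 0.57 and 1.00, or 0.20 and 0.25 after the GC and length correction), the *Cbx7* share is lower in all, and the *Bmi1* shares overlap.

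The other genes of the Polycomb system were examined from 7 lists of 53 genes. All 53 were in the files and 48 passed the filter, of which 28 were lower in cKO, 5 were higher and 15 were not called, with a median log2 fold change of -0.37 against 0.039 over all genes and with 29.8% of all genes called lower. Among the 5 is the Y-linked *Uty*, which was at 0 in WT and passed the filter only through cKO. After the GC and length correction 17 of the 28 were still called lower and 26 kept a negative value, and the median over the lists was -0.11. Treating WT as 1 sample left 9 lower and 2 higher, and the same FPKM total gave 43 lower and 2 higher, the 2 being *Rbbp7* and *Uty* in both settings. The 5 genes not tested (*Ezhip*, *Pcgf2*, *Scml2*, *Auts2* and *Asxl3*) were at 0 to 0.512 FPKM in every library.

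Among the accessory subunits of PRC2, 4 of 9 tested genes were lower and 2 were higher. After the GC and length correction 4 were lower and 1 was higher, with *Mtf2* called lower in place of *Epop*. *Phf1*, a Polycomb-like protein that helps PRC2 bind chromatin, was at 19.9, 19.6 and 18.5 FPKM in WT and at 5.90, 9.93 and 4.79 in cKO (log2 fold change -1.42, adjusted p = 0.00115, limma). Its paralogues *Mtf2* (-0.014) and *Phf19* (-0.095) were not called. *Jarid2* (-0.52) and *Aebp2* (-0.50), which mark one form of PRC2, and *Epop* (-0.70), which marks another, were lower, *Epop* without a call after the correction (-0.31, adjusted p = 0.0885, limma). The histone-binding proteins *Rbbp4* (0.35) and *Rbbp7* (0.83), shared with other chromatin complexes, were higher, although with the same FPKM total *Rbbp4* was called lower. *Rbbp7* had 69.8 to 73.0 FPKM in WT and 115 to 135 in cKO and lies on chromosome X.

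The CBX, PHC and SCM genes of PRC1 other than *Cbx7* were mostly lower, while the PCGF genes other than *Bmi1* went both ways. Of the other CBX genes *Cbx6* (-0.70) and *Cbx2* (-0.44) were lower and *Cbx8* was not called (-0.062). After the GC and length correction neither *Cbx6* nor *Cbx2* was called (-0.11 and 0.081), whereas *Cbx7* was. *Phc2* had the highest FPKM of the PHC genes, whose proteins polymerise PRC1. Its level was 54.6 to 55.1 FPKM in WT and 31.7 to 34.8 in cKO (-0.70, adjusted p = 0.000205, limma). In all, 5 of 7 PHC and SCM genes were lower (2 after the GC and length correction and fewer still with WT as 1 sample). After the correction *Phc2* was at -0.073 and was not called. Of the PCGF genes other than *Bmi1*, *Pcgf6* was lower (-0.87), *Pcgf1* was higher (0.58) and *Pcgf3* and *Pcgf5* were not called. The value of *Pcgf1* was 0.052 with the same FPKM total and -0.013 after the GC and length correction.

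**Figure D5:**
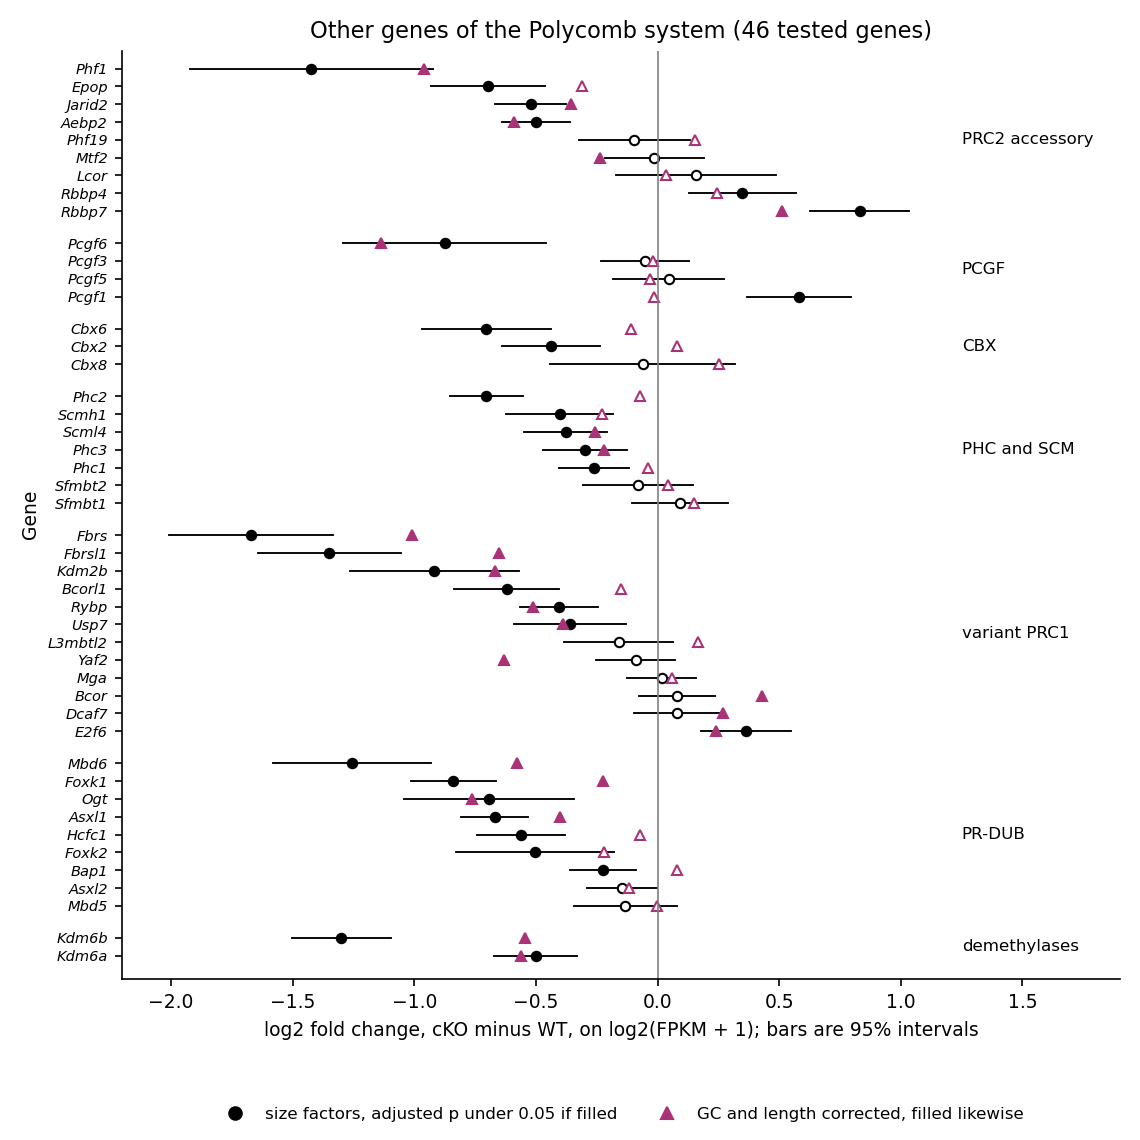
Log2 fold change (cKO minus WT) of 46 other Polycomb genes in 7 lists, as black circles with 95% intervals under size factors and as purple triangles after the GC and length correction, filled where the adjusted p is under 0.05; the Y-linked *Uty* is among the genes left out. Most circles lie left of 0, and many triangles, such as those of the CBX genes, lie nearer to 0.

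Genes of variant PRC1, which carries RYBP or YAF2 in place of a CBX protein, held the steepest fall of these lists. *Fbrs* was at 82.5, 83.5 and 80.6 FPKM in WT and at 22.7, 32.4 and 21.5 in cKO (-1.67, adjusted p = 0.000178, limma). Its relative *Fbrsl1* (-1.35), *Kdm2b* (-0.92), the protein that takes one variant complex to CpG islands, and *Rybp* (-0.41) were also lower. *E2f6*, a repressive E2F in another variant complex, was higher (0.36), but not with the same FPKM total (-0.11). In all 6 of 12 tested genes were lower and 1 was higher, against 29.8% of all genes lower and 35.8% higher. After the GC and length correction 6 were lower and 3 were higher (*Bcor*, *Dcaf7* and *E2f6*).

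Genes of the enzymes that remove the marks of these complexes, and of their partner proteins, were mostly lower as well, apart from *Uty*. Of 9 tested genes of the Polycomb deubiquitinase PR-DUB, 7 were lower (4 after the GC and length correction and 3 with WT as 1 sample), with *Mbd6* (-1.26) and *Foxk1* (-0.84) the steepest, and *Bap1*, the catalytic subunit, at 46.0 to 46.3 FPKM in WT and 38.1 to 40.6 in cKO (-0.22, adjusted p = 0.0112, limma). After the GC and length correction the value of *Bap1* was 0.081 and was not called. *Kdm6b*, which demethylates lysine 27 of H3, was at 57.3, 57.3 and 55.8 FPKM in WT and at 24.8, 22.8 and 20.02 in cKO (-1.30, adjusted p = 0.000106, limma), and its X-linked paralogue *Kdm6a* was lower too (-0.50). Both kept their calls after the correction. *Uty*, their Y-linked paralogue, was called higher, with the sex difference given above. For the X-linked *Kdm6a*, too, sex and genotype cannot be told apart.

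Among the cell cycle inhibitors known as Polycomb targets, *Cdkn2a* and *Cdkn2b* were at no more than 0.0833 FPKM in any library of either genotype. *Cdkn1a* was at 1.245 to 1.43 FPKM in WT and 2.33 to 2.84 in cKO (0.60, adjusted p = 0.00118, limma, and 0.24 without a call with the same FPKM total), and *Cdkn1c* overlapped between the genotypes. The paper reported less p21, the protein made from *Cdkn1a*, in western blots of cKO thymocytes, which is the opposite direction. Those blots measured protein in extracts described as thymocytes, whereas the values here are mRNA of sorted DP cells, so the comparison is not a like one.

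The genes whose pattern over the 6 libraries was most like that of each member were found by the root-mean-square distance of centred log2(FPKM + 1) values. For *Ezh2* they were *Gpn3* and *Itfg1* (distances of 0.018 and 0.019), and for *Eed* they were *Brox* and *Golga7* (0.014 and 0.020). For *Cbx7* they were *Carns1* and *Map4k2* (0.074 and 0.092), in which cKO 2 was also the highest of the cKO libraries. *Carns1*, for example, was at 20.6 to 21.4 FPKM in WT and at 3.98, 8.42 and 3.69 in cKO. The nearest genes were *C2cd2l* and *Fam120a* for *Ring1*, *Ugp2* and *Gcdh* for *Rnf2*, *Mrps25* and *Rragd* for *Suz12*, *Smad4* and *Taf5* for *Ezh1* and *Wdr11* and *Dffb* for *Bmi1*, at distances of 0.019 to 0.041.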

How the data were processed

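Poly(A)-selected, strand-specific libraries of sorted DP thymocytes were sequenced by the authors on a NovaSeq (paired ends). Trimmed reads were aligned to mm10 with TopHat, and the authors deposited the FPKM values that Cufflinks gave, 1 for each symbol and library. Tool versions, annotation and strand setting are not given in the sources used here. FPKM values are not counts, so DESeq2, which the authors used, was not run.

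Depth was estimated from steps of 1 fragment at 2611 single-transcript coding genes over 1000 nt, assuming fragments of 200 nt, and covers counting error only. FPKM was divided by median-of-ratios size factors (1.00 to 1.01), and log2(FPKM + 1), which understates changes of low genes, went into limma 3.58.1 (R 4.3.3, lmFit and eBayes with a trend) with genotype as the only term, for genes at 1 FPKM or more in at least 3 libraries. Adjustment followed Benjamini and Hochberg, with a threshold of 0.05. Tests were checked on simulated data. Ratios and shares were compared by an exact two-sided permutation test over 6 libraries with Python 3.11.15 and scipy 1.17.1. Annotation came from GENCODE M21 on GRCm38 and promoters from RefSeq, and the GC and length correction used natural splines with 5 degrees of freedom each.

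Named genes were the members, *Nsrp1*, genes of the Polycomb lists (at least the 2 called with the largest change in each), the 2 genes most like each member, and the most abundant markers. *Rbbp4*, *Mtf2* and other list members were named by their role. Single values of some list members are not reported here, though they count in the lists. The members and lists were chosen with earlier results of these data known. Alternatives were pseudocount, filter, scaling, variance trend, WT as 1 sample, replicate block, GC and length correction and each library left out. Correcting for GC and length together with WT as 1 sample, or in the ratios, was chosen after seeing the data.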

Additional observations from a re-analysis of the deposited data

How the results depend on the processing

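Of 276 values computed under alternative settings for the genes, counts and ratios, 9 reversed in sign. With the same FPKM total, which moved the median of all genes to -0.45, *Ezh2* was at -0.16, *Eed* at -0.24 and *Rnf2* at -0.33. *Rnf2* was at -0.073 after the GC and length correction, with or without the WT libraries counted as 1 sample. *Bmi1* was at 0.0043 with quantile normalization, at 0.020 without WT 2 and at 0.12 without cKO 1 (-0.14 to 0.12 with 1 library left out), and its share among PCGF genes was higher by 0.29 percentage points without cKO 1. The causes were not tested.

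Of the 8 genes, the number called higher (3) became 1 with quantile normalization, 0 with the same FPKM total, 0 with WT counted as 1 sample, 0 after the GC and length correction and 0 with both, and the number called lower (2) became 6 with the same FPKM total, 4 without cKO 2 and 0 with the GC and length correction and WT as 1 sample. The other Polycomb genes called higher and lower (5 and 28) became 2 and 43 with the same FPKM total, 2 and 9 with WT as 1 sample and 1 and 0 with WT as 1 sample and the correction, the 1 being the Y-linked *Uty*, at 0 in WT. Over all tested genes the calls (3693 higher and 3073 lower) became 903 and 6182, 744 and 901, and 5 and 22 under those settings.

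With 1 library left out, 2 to 3 of the 8 genes were higher and 2 to 4 lower, 4 to 6 and 26 to 29 of the other Polycomb genes, and 3083 to 4132 and 2503 to 3522 of all genes. The difference in log2 ratio lay between 0.51 and 0.67 for *Ezh2* to *Ezh1* and between 0.90 and 1.06 for *Rnf2* to *Ring1*, and that in share between -11.4 and -8.80 points for *Cbx7* and between -2.86 and 0.29 for *Bmi1*. Same-numbered libraries did not deviate together (correlations of -0.022, 0.038 and 0.031), so the numbers are not taken to pair them. With the replicate number as a block 2 of the 8 genes were higher and 2 lower, *Rnf2* losing its call (adjusted p = 0.0579, limma), and no other member changed its call. *Cbx7* and *Ring1* in cKO 1 rest on about 106 and 195 estimated fragments, which limits their precision.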

Other observations

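The *Hox* genes, classical targets of Polycomb, were looked at after their values were seen. Of 39 such genes in the files 14 were at 0 in all 6 libraries and 2 reached 1 FPKM in any. *Hoxa7* was at 1.31, 1.33 and 1.24 FPKM in WT and at 0.17, 0.083 and 0.13 in cKO, and *Hoxa5* at 0.97, 0.98 and 1.21 against 0, 0.29 and 0.28. *Hoxa6* was at 0.40 to 0.71 FPKM in WT and at 0 to 0.16 in cKO, *Hoxa3* at 0.33 to 0.43 and at 0 to 0.097. *Hoxb4* overlapped between the genotypes (0.14 to 0.30 and 0.16 to 0.24 FPKM), as did *Hoxd11*, whose mean was higher in cKO (0.11 to 0.24 and 0.21 to 0.45). These genes were too low for the filter or passed it only through WT, and no test is given for them.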
